A study of Mus musculus with 6 samples.

Results

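Untreated epiblast stem cells (EpiSCs) were set against untreated mouse embryonic stem (mES) cells on one-colour arrays, which make up 3 of the 6 samples of the series. The EpiSC arrays hold 1 line from E3.5 embryos, before implantation, and 1 line from E5.5 embryos, and the mES array holds cells labelled E3.5. All 3 samples are of strain 129, were grown in Knockout DMEM with 20% KSR and received no agent, and total RNA was measured. The other 3 samples are the same cells given SB431542, an inhibitor of the Activin, Nodal and TGF-beta type I receptors, at 20 µM each day for 4 days. Each sample is 1 array, the labels do not say how many lines, clones or cultures lie behind it, and no group has a replicate of its own. The 2 EpiSC lines therefore served as the replicates of the EpiSC class (n = 2 EpiSC arrays and 1 mES array), and a p-value here reflects how these few arrays scatter, which can be of technical origin.

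Mouse ES cells stand for the naive state of pluripotency, that of the blastocyst before implantation, and EpiSCs for the primed state of the epiblast after it. Both states share the core factors Oct4, Nanog and Sox2. The naive state is known for factors such as Esrrb, Nr5a2 and the Klf family, for low DNA methylation and for activity of genes otherwise kept to the germ line. The primed state depends on Activin and FGF signals and is close to the genes of gastrulation.

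Signals are given as levels, log2 of an array's intensity over its own 75th percentile, so that 0 is that percentile and a step of 1 is a 2-fold step. Of 17015 named genes measured, 16152 were well above background on at least 1 of the 6 arrays and were tested. The share of spots with signal clearly over background ran between 82.6% and 85.7% by array. Of 14 naive markers tested, 13 were at least 2-fold lower in both EpiSC lines and 5 passed the test, while of 17 primed epiblast markers 8 were at least 2-fold higher in both and 3 passed. Of 8 core pluripotency markers none passed the test, and Utf1 was the only one at least 2-fold lower in both lines, with levels of 2.46 in the E3.5 EpiSC line and 1.39 in the E5.5 EpiSC line, against 3.63 in mES cells. These markers went with the labels of the cell classes, though not each of them did. Otx2, a factor of the primed epiblast, had levels of -0.18 in the E3.5 line and 2.54 in the E5.5 line, against -0.04 in mES cells. Dnmt3b, a de novo DNA methyltransferase gene used as a primed marker, lay at 4.41 and 4.58 in the EpiSC lines and at 4.55 in mES cells.

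The E5.5 EpiSC array stood apart from the other untreated arrays in 2 respects. Xist, the RNA that coats the inactive X chromosome, lay at 0.15 on the E5.5 array, against -8.66 on the E3.5 EpiSC array, and at -7.02 in mES cells. The Y-linked genes Ddx3y (-5.15 in the E5.5 line, 1.49 in the E3.5 line and 0.17 in mES cells) and Eif2s3y (-4.85, 1.58 and 2.24, in the same order) ran the other way. Of 18 fibroblast markers, which feeder cells would carry, 14 were at least 2-fold higher than in mES cells in the E5.5 line, 4 in the E3.5 line and 4 in both. Their summed linear level, in multiples of the 75th percentile, was 144.2 in the E5.5 line and 99.1 in the E3.5 line, against 56.2 in mES cells. A few bright genes weigh most in such a sum, such as Tagln, with a level of 4.59 in the E3.5 line against 0.04 in mES cells. The median difference from mES cells was 1.88 (log2) in the E5.5 line but 0.10 in the E3.5 line, where 2 markers were at least 2-fold lower. In bulk RNA, fewer cells of a type and less RNA per cell cannot be told apart.

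The E3.5 EpiSC array differed from the other untreated arrays at low signal. The mES and E5.5 EpiSC arrays, untreated and treated, shared slide 1. The untreated E3.5 EpiSC array lay on slide 2 and the treated one on slide 3. Line and slide therefore cannot be told apart in either pair of EpiSC arrays, untreated or treated. There were 182 genes at least 4-fold lower than in mES cells in the E3.5 line but under 2-fold changed in the E5.5 line, with a median mES level of -4.0, and 57 of them (31.3%) were odorant or vomeronasal receptor genes, which made up 4.96% of all genes tested. The reverse pattern, 4-fold lower in the E5.5 line alone, held for 36 genes and for 0 such receptors. Of 801 receptor genes tested, 142 were at least 2-fold lower in the E3.5 line and 38 in the E5.5 line, against 17 in both and 1 that passed the test. This group was chosen after the values were seen, and the part of the slide in it was not tested. On the treated arrays the 182 genes had a median difference from treated mES cells of -1.22 in the E3.5 line and -0.10 in the E5.5 line. For the 801 receptor genes these medians were -0.95 and -0.17, and for all genes tested -0.46 and -0.18. All 242 genes that passed the test were at least 2-fold changed in the E5.5 line too, within slide 1. This follows from their size: the smallest change that passed was 2.46, and each line lay within 1.19 of the mean of both. It therefore cannot show whether the slide affected the calls.

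Few genes passed a test across all genes with so few arrays, and falls outnumbered rises. In a limma fit of 4 arms over all 6 arrays, 63 genes rose in EpiSCs (0.39% of the 16152 tested) and 179 fell (1.11%), with a Benjamini-Hochberg adjusted p under 0.05 and a signal above background on the brighter side. Together these 242 genes were 1.5% of those tested. The smallest change that passed was 2.46 for a rise and -2.52 for a fall. The treated arrays entered the filter on signal and the estimate of the spread, and the calls rest on them: 0 genes rose and 0 fell without the E3.5 EpiSC + SB431542 array, without the E5.5 EpiSC + SB431542 array, or with the 3 untreated arrays alone, where 3281 genes had an unadjusted p under 0.05. The spread was that between the EpiSC lines, read once untreated and once treated, and these readings share the lines: the line difference correlated between them with r = 0.27 across genes, which are not independent replicates. With the line as a block, an alternative added after seeing the data, 249 genes rose and 382 fell, but the error then leaves out the difference between lines. By size alone, with no test, 1280 genes were at least 2-fold higher in both EpiSC lines (7.92%) and 1182 at least 2-fold lower in both (7.32%). At 4-fold these were 391 (2.42%) and 485 (3.0%). Of 14113 probes that had signal but no gene name, 858 were at least 2-fold higher in both lines (6.08%) and 985 lower (6.98%). The lines share the mES array, so that an error in it moves both differences together. Of the 96 named genes that passed, 50 lost the call under at least 1 of the settings followed gene by gene. The losses came with normexp background correction, quantile scaling, the mean of a gene's probes, or 1 untreated EpiSC line left out. The fits above with 0 rises and 0 falls are not among these settings, and in them all 96 lost the call. Normexp adds 50 to each signal and so by construction shrinks the differences of dim genes. Leaving out 1 EpiSC line leaves fewer arrays. The losses of the 50 genes are given below with their adjusted p.

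**Figure D1:**
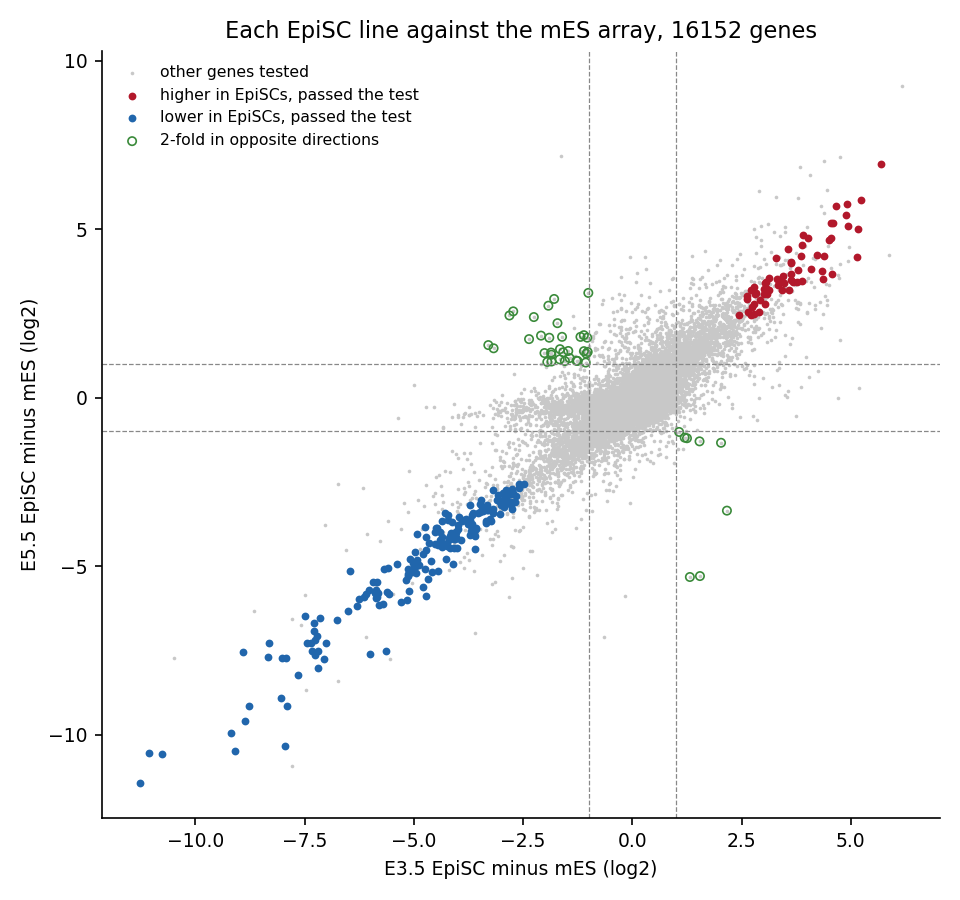
Difference from the mES array in log2 for the E3.5 EpiSC line (horizontal axis) and the E5.5 EpiSC line (vertical axis), 1 point for each of 16152 genes tested; dashed lines mark 2-fold. The 63 rises (red) and 179 falls (blue) lie far out in the same direction in both lines, 41 genes (green rings) are at least 2-fold off in opposite directions, and a spur of grey points at the left centre holds genes low in the E3.5 line alone.

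The leading rises were ranked among genes that passed the test and were above background on all 3 untreated arrays. They had the largest change in the line where it was smaller, and included growth factor, surface and metal-handling genes. Cer1, a primed marker outside this ranking, changed more, by 6.17 in the E3.5 line and 9.26 in the E5.5 line. It did not pass (7.71 ± 1.46, adjusted p = 0.0968). Fgf5, a growth factor of the epiblast after implantation, had levels of 3.07 in the E3.5 line and 4.32 in the E5.5 line, against -2.62 in mES cells, a rise of 6.32 ± 0.60 (log2, SE, adjusted p = 0.0283). Chst1, a sulfotransferase that adds sulfate to keratan sulfate chains, had levels of 3.52 and 4.16 in the EpiSC lines, against -1.71 in mES cells, a rise of 5.56 ± 0.62 (adjusted p = 0.0382). Slc39a8, the zinc and manganese importer ZIP8, had 1.09 and 1.93 in the EpiSC lines, against -3.82 in mES cells, a rise of 5.33 ± 0.51 (adjusted p = 0.0288). For Fgf5, Chst1 and Slc39a8 both EpiSC arrays lay far above the mES array, with a small distance between them beside the gap to mES cells.

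Cd59a, which shields cells from complement, had levels of 3.79 and 4.32 in the EpiSC lines, against -1.11 in mES cells (rise 5.16 ± 0.38, adjusted p = 0.0192). Heph, the copper oxidase hephaestin that readies iron for transferrin, had -0.56 and -0.40, against -5.50 in mES cells (5.02 ± 0.36). Dhrs3, which reduces retinal to retinol, had 1.96 and 2.61, against -2.58 in mES cells (4.86 ± 0.42). For each of these genes the EpiSC lines lay close together beside the gap to the mES array, by which the genes were ranked. Igfbp5, a secreted binder of insulin-like growth factors, rose by 4.65, Fgf8, a growth factor of the primitive streak, by 4.59, Pkdcc, a secreted kinase, by 4.38, Meis2, a homeobox factor, by 4.66, Fndc3c1 by 4.29 and Sox9, a factor of cartilage and neural crest among other tissues, by 4.23. Sox9 had a level of -1.17 in both EpiSC lines, against -5.40 in mES cells. Probes disagreed on several of these genes: besides the brightest probe, Sox9 had probes at 3.96 and 0.04, Heph 1 at 0.91 and Igfbp5 1 at 0.61. With the mean of its probes Igfbp5 did not pass (adjusted p = 0.0663), nor did Meis2 (adjusted p = 0.0527), which quantile scaling also ended (adjusted p = 0.0529).

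Of the 63 rises, 8 were above background on both EpiSC arrays but not in mES cells, so that only a lower bound of the fold can be given. Rgs8, a regulator of G protein signalling, was at least 33.9-fold higher in EpiSCs, Enkur, a ciliary protein gene, at least 15.9-fold, Heg1, a membrane protein of vessel development, at least 12.5-fold and Il7, a cytokine, at least 12.3-fold. The transcription factor genes Irf2 (at least 9.13-fold), Zfhx4 (at least 4.6-fold) and Foxf2 (at least 3.95-fold) and the kelch protein gene Klhl4 (at least 6.19-fold) completed the 8, which hold no rank among the rises. With normexp 0 of the 8 passed, with differences from 1.20 for Foxf2 to 2.93 for Rgs8 and adjusted p from 0.0872 to 0.295. A second, dimmer probe of Rgs8 gave 0.62 (log2), so the bound is that of 1 probe. Heg1 (adjusted p = 0.0644), Foxf2 (0.0521) and Zfhx4 (0.0732) did not pass without the E3.5 line, nor Enkur (0.0528), Heg1 (0.0644), Foxf2 (0.0616) and Zfhx4 (0.0844) without the E5.5 line, nor Heg1 with the mean of its probes (0.0877).

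**Figure D2:**
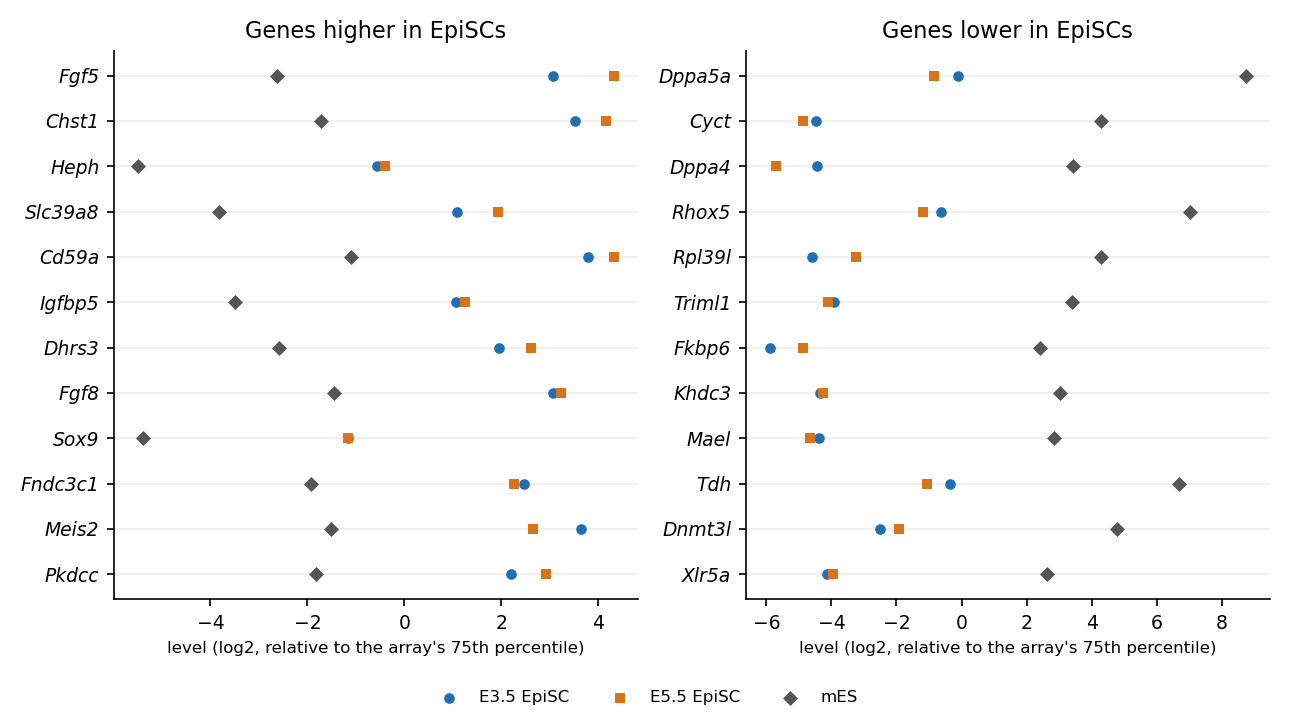
Levels (log2 relative to the array's 75th percentile) of the 12 leading rises and the 12 leading falls on the E3.5 EpiSC, E5.5 EpiSC and mES arrays, 1 point an array, ordered from the top by the change in the line where it was smaller. Levels are to be compared within a gene; for each gene the 2 EpiSC points lie on the same side of the mES point, as in Fgf5 (3.07 and 4.32 against -2.62) and Dppa5a (-0.12 and -0.86 against 8.75).

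Falls were ranked in the same way, among genes that passed. The 12 leading falls were larger than the 12 leading rises and included genes known from the oocyte, the early embryo and the testis. Zfp42, a naive marker, changed by -7.78 in the E3.5 line and -10.92 in the E5.5 line but did not pass (-9.35 ± 1.35, adjusted p = 0.0585). Dppa5a, an RNA-binding protein gene of naive pluripotent cells, had levels of -0.12 and -0.86 in the E3.5 and E5.5 EpiSC lines, against 8.75 in mES cells, a change of -9.24 ± 0.43 (adjusted p = 0.0122). Cyct, the testis form of cytochrome c, had -4.49 and -4.86, against 4.29 in mES cells (-8.96 ± 0.36, adjusted p = 0.0122). Rpl39l, the testis copy of a ribosomal protein, had -4.61 and -3.24, against 4.30 in mES cells (-8.22 ± 0.65, adjusted p = 0.0201). On each of these probes both EpiSC arrays lay far below the mES array, the gap by which the genes were ranked. A second, dimmer probe of Rpl39l gave -3.72, and with the mean of both the gene did not pass (adjusted p = 0.0806).

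Fkbp6, a chaperone partner needed in meiosis and the piRNA pathway, had levels of -5.90 and -4.89 in the EpiSC lines, against 2.41 in mES cells (-7.80 ± 0.54). Tdh, threonine dehydrogenase, which feeds threonine into glycine and acetyl-CoA in mouse ES cells, had -0.36 and -1.07, against 6.69 in mES cells (-7.41 ± 0.45). Dnmt3l, the cofactor of de novo DNA methylation in germ cells, had -2.52 and -1.92, against 4.77 in mES cells (-6.99 ± 0.49). The remaining leading falls were Dppa4 (-8.51), a chromatin protein gene of pluripotent cells, the X-linked homeobox gene Rhox5 (-7.94), the piRNA pathway gene Mael (-7.35), the oocyte gene Khdc3 (-7.33), Triml1 (-7.42) and Xlr5a (-6.68). Xlr and Rhox genes have near-identical copies, so a probe may read several of them.

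Of the 179 falls, 62 were above background in mES cells and on neither EpiSC array, and 11 on only 1 of these. Fmr1nb, an X-linked cancer and testis gene, was at least 661-fold lower in EpiSCs, Pramel13 at least 535-fold, Morc1, which silences transposons in male germ cells, at least 498-fold and Rbmxl2, a testis RNA-binding protein gene, at least 421-fold. Accsl (at least 121-fold), the defensin gene Defa23 (at least 108-fold), the synaptonemal complex gene Sycp1 (at least 104-fold) and the germ cell helicase gene Ddx4 (at least 93.7-fold) were the other genes with a bound of this size. Levels of Ddx4 were -8.12 and -7.49 in the EpiSC lines, against 0.21 in mES cells. Defa23 and Pramel13 belong to families of close copies, which their probes may not separate.

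The promoters of the genes that fell held fewer CpG dinucleotides than those of the genes that rose. RefSeq promoters of assembly GRCm38.p6, windows of equal length that lie mostly upstream of the start, were matched by symbol for 147 of the 179 falls, 50 of the 63 rises and 12881 of the genes tested. The median number of CpG dinucleotides per promoter was 7 for falls and 19 for rises, against 17 for genes tested. The motifs searched were E-box, E2F, octamer, Esrrb, Klf, Tcf/Lef, Otx, Tead and Stat. The E-box had the largest excess over all promoters among falls, and E2F among rises. Both were picked for this, from these same genes, so their excess follows from the choice. The Klf motif, for one, was in 2.04% of falls and 14% of rises, against 8.27% of genes tested. The E-box CACGTG, a palindrome and so the same on both strands, was found in 20 promoters of falls (13.6%) and 6 of rises (12%), against 9.09% of promoters of genes tested and 7.24% of all 27025 promoters. The E2F motif GGCGGGA, searched on both strands and with no overlap with the E-box, was found in 12 promoters of falls (8.16%) and 10 of rises (20%), against 17.6% of genes tested. A match is a description of these letters and not a binding site. The promoters below, with the matches of the motif named in each line in capitals, show falls with E-boxes that differ in CpG count and 1 rise. Rbmxl2 also holds 1 E2F match, left in lower case.

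Slc51a, a bile acid transporter subunit gene that fell (-2.98), chr16:32487830-32488129, minus strand, with 3 E-boxes and 3 CpG: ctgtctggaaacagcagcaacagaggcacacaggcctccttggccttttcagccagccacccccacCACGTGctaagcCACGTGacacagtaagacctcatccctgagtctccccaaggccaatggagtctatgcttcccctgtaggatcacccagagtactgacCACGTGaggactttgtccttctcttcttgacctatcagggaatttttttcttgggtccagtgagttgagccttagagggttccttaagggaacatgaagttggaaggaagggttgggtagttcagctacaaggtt

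Fkbp6, a fall (-7.80), chr5:135349995-135350294, minus strand, with 2 E-boxes and 21 CpG: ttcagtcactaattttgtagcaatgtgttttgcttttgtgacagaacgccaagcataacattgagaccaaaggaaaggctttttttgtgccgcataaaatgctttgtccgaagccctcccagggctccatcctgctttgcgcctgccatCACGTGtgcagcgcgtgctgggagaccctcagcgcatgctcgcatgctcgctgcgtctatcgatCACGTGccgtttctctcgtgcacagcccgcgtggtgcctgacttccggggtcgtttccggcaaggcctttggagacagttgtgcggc

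Rbmxl2, a fall (at least 421-fold), chr7:107209195-107209494, plus strand, with 1 E-box and 29 CpG: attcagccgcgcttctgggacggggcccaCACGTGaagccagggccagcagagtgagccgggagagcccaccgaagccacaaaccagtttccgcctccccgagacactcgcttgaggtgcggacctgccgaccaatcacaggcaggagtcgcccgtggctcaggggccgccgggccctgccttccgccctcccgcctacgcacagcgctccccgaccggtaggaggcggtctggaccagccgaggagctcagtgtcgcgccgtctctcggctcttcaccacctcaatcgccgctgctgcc

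Pkdcc, a rise (4.38), chr17:83215033-83215332, plus strand, with 1 E2F match and 42 CpG: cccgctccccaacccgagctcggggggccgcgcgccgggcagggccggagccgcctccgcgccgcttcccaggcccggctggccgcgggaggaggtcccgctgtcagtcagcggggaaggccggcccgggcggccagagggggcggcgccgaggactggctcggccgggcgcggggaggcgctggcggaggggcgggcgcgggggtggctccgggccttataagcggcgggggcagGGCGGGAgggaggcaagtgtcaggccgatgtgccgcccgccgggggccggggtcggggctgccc

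Among cell surface genes the Eph receptors and ephrins, contact signals that sort cells from one another, were the list with the largest share at least 2-fold higher in both EpiSC lines. Of 21 tested, 10 were at least 2-fold higher in both lines (background 7.92%) and 0 at least 2-fold lower, with a median of 1.04 (log2) against -0.06 over all genes tested. Efnb1, the ligand ephrin-B1, had levels of 2.99 and 2.87 in the E3.5 and E5.5 EpiSC lines, against -0.63 in mES cells, and was the only member that passed the test (3.56 ± 0.34, adjusted p = 0.0283). The other ligands at least 2-fold higher in both lines were Efna2 (1.83), Efna5 (2.20), Efnb2 (2.27) and Efnb3 (1.04), and the receptors were Epha1 (2.46), Epha3 (2.57), Epha7 (1.45), Ephb1 (1.79) and Ephb6 (1.12). Epha2, a receptor bright in both cell classes, had 4.04 and 3.56 in the EpiSC lines, against 3.5 in mES cells. Efna5 had a second probe at -0.49, so its direction is not settled. Efnb1 missed the threshold without the E3.5 line (adjusted p = 0.0561) and without the E5.5 line (adjusted p = 0.0505).

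Cadherins and protocadherins, which hold like cells together, showed the same one-sided counts. Of 57 tested, 13 were at least 2-fold higher in both lines and 0 at least 2-fold lower, but the median was 0.28 and only Pcdh8, the protocadherin of the paraxial mesoderm, rose past the test (levels of -1.12 and -0.75 in EpiSCs, against -4.14 in mES cells, 3.21 ± 0.36, adjusted p = 0.0382). Cdh2, N-cadherin, had -2.09 and -1.57, against -5.66 in mES cells (3.83 ± 0.64, adjusted p = 0.0774). Pcdhb20 (4.15), Pcdhb21 (3.60) and Pcdhb22 (3.28) had values of similar size, but their cluster holds close copies and none passed. Of 9 syndecans and glypicans, heparan sulfate carriers at the membrane, 3 were at least 2-fold higher in both lines and 0 lower, with Gpc1 at 4.42 and 4.36 in EpiSCs, against 2.08 in mES cells (2.31 ± 0.31, adjusted p = 0.0536). Pcdh8 did not pass without the E3.5 line (adjusted p = 0.0608) or without the E5.5 line (adjusted p = 0.0819).

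Genes of antigen presentation had higher values too, and none passed the test. Of 30 tested, 10 were at least 2-fold higher in both lines (background 7.92%) and 1 (H2-T3, -2.94) at least 2-fold lower (background 7.32%), with a median of 0.94. They covered several steps of the pathway. The peptide transporter gene Tap2 had levels of -0.64 and -0.53 in EpiSCs, against -3.11 in mES cells (2.52 ± 0.34, adjusted p = 0.055). The immunoproteasome gene Psmb8 had 2.32 and 3.27, against -0.61 in mES cells (3.41 ± 0.91, adjusted p = 0.174), and the light chain gene B2m had 3.43 and 4.33, against 2.27 in mES cells (1.61 ± 0.63, adjusted p = 0.319). H2-K1, a classical class I heavy chain, had 4.65 and 4.33, against 2.79 in mES cells (1.70 ± 0.35, adjusted p = 0.113). H2-Ab1, a class II chain held in the same list, had the largest value (3.48). The medians of the antigen presentation list were 0.89 in the E3.5 line and 1.0 in the E5.5 line, beside 0.10 and 1.88 for the 18 fibroblast markers, whose part in the result was not tested.

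Other surface families split or stayed near the background. Of 74 CD antigens, Cd59a rose, and Cd80 (-3.32), a costimulator of T cells, and Cd209d (at least 13.2-fold lower), a lectin, fell, with 8 at least 2-fold higher and 7 at least 2-fold lower in both lines. Of 23 integrins, Itgb7, the beta chain of lymphocyte homing receptors, fell (levels of -2.55 and -2.32 in EpiSCs, against 1.34 in mES cells, -3.77 ± 0.33, adjusted p = 0.0255). Of 102 G protein-coupled receptors none passed, the nearest being Adgre5 (-2.66, adjusted p = 0.0507) and Lpar4 (2.65, adjusted p = 0.0513). Of 33 receptor tyrosine kinases none passed either, and Flt1, a VEGF receptor gene, had levels of 0.55 in the E3.5 line and 3.23 in the E5.5 line, against -2.73 in mES cells. Of 102 glycan-building enzymes, Chst1 rose and St6galnac1, which caps O-glycans with sialic acid, was at least 3.81-fold lower. St6galnac1 had a level of -4.41 in mES cells, against -8.55 and -8.42 in the EpiSC lines. The treated mES array read -8.30, not above background, so this fall rests on 1 dim mES signal. Among 39 claudins and tetraspanins the largest value was that of Tspan12 (2.85, adjusted p = 0.0699). The calls of Cd80 (-1.38, adjusted p = 0.205), Cd209d (-1.61, adjusted p = 0.245) and St6galnac1 (-0.35, adjusted p = 0.796) ended with normexp, and that of Cd80 also without the E3.5 line (adjusted p = 0.0655) or the E5.5 line (adjusted p = 0.0644).

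Among secreted signals more genes were at least 2-fold higher than at least 2-fold lower in both lines, and most were neither. Over all genes tested the shares were 7.92% higher and 7.32% lower. Of 69 FGF, TGF-beta family and Wnt ligand genes tested, 11 were at least 2-fold higher in both lines (15.9%) and 1 lower (1.45%). The median of this list was 0.23, and Fgf5, Fgf8 and Tgfb2 rose past the test. Tgfb2 had levels of -1.70 and -1.34 in the EpiSC lines, against -5.34 in mES cells (3.82 ± 0.47, adjusted p = 0.0463). Wnt3, the ligand that starts the primitive streak, had 0.70 and 1.23, against -2.75 in mES cells (3.72, adjusted p = 0.0581), and Wnt8a had 3.62 and 2.45, against -1.11 in mES cells (4.15, adjusted p = 0.243). Of 55 chemokines and interleukins, 9 were at least 2-fold higher in both lines (16.4%) and 3 lower (5.46%), with a median of 0.07. Of 47 collagens and laminins, 9 were at least 2-fold higher in both lines (19.15%) and 3 lower (6.38%). Col8a2, a short-chain collagen, rose (3.72 ± 0.46). Of 81 serpins, matrix proteases and inhibitors, 15 were at least 2-fold higher in both lines (18.5%) and 7 lower (8.64%), with a median of 0.006. Serpinh1, the collagen chaperone, had 5.06 and 4.97 in EpiSCs, against 1.97 in mES cells (3.04 ± 0.44, adjusted p = 0.0589), while Serpinb5, maspin, was at least 22.2-fold lower. The medians of the collagen and laminin list were 0.20 in the E3.5 line and 0.74 in the E5.5 line, beside those of the fibroblast markers, among which collagens stand too, and their part was not tested. Tgfb2 did not pass with normexp (adjusted p = 0.0635), with the mean of probes (0.051), or without the E3.5 line (0.051) or the E5.5 line (0.0669). Col8a2 did not pass with normexp (0.0868), with the mean of probes (0.051) or without the E5.5 line (0.063), nor Serpinb5 with normexp (-2.06, adjusted p = 0.137).

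**Figure D3:**
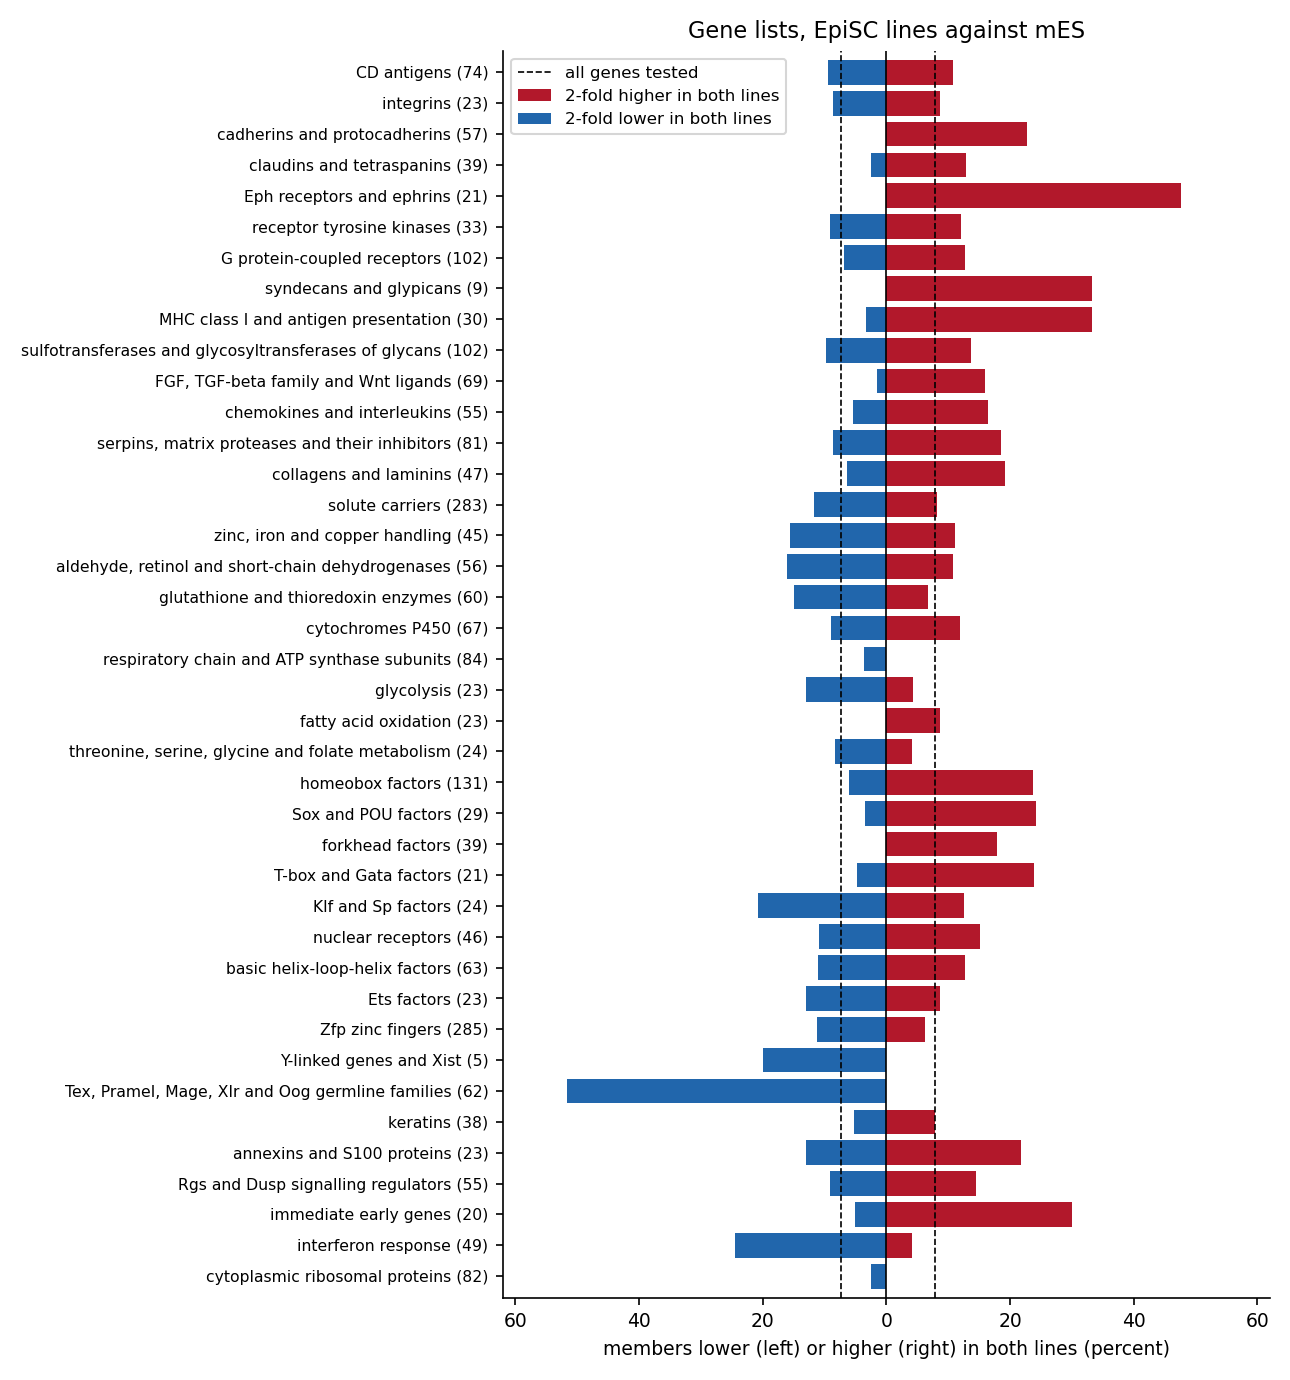
Percent of the tested members of each of 40 gene lists that were at least 2-fold higher in both EpiSC lines than in mES cells (red, right) or at least 2-fold lower in both (blue, left), with the number tested in brackets; dashed lines give the same over all genes tested (7.92% and 7.32%). The Eph receptors and ephrins reach furthest to the right (10 of 21) and the germline families furthest to the left (32 of 62), with the respiratory chain and ribosomal proteins close to 0 on both sides.

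No metabolic list held more than 2 rises or 3 falls. Of 84 respiratory chain and ATP synthase genes tested, 0 were at least 2-fold higher and 3 at least 2-fold lower in both lines, and all 3 fell past the test: Cyct, Cox8c (at least 31.3-fold lower) and Cox7b2 (-4.78 ± 0.46, adjusted p = 0.0288), each the germ-cell copy of a general subunit. The median of the list was -0.14. Of 23 glycolysis genes none passed; Pfkp, platelet phosphofructokinase, had levels of 0.11 and -0.33 in EpiSCs, against 2.56 in mES cells (-2.67, adjusted p = 0.143), and Eno3 had 2.0 and 1.91, against 0.43 in mES cells (1.53). Of 23 fatty acid oxidation genes none passed, and Acadl, the long-chain acyl-CoA dehydrogenase gene, had the largest value (2.35, adjusted p = 0.0655). Of 24 genes of threonine, serine, glycine and folate metabolism only Tdh fell. Gldc, which cleaves glycine, had 1.26 and 1.1 in EpiSCs, against 2.87 in mES cells (-1.69, adjusted p = 0.116), and Gcat, the enzyme after Tdh, had 2.80 and 2.50, against 3.64 in mES cells (-0.98). Cox8c (-2.60, adjusted p = 0.0857) and Cox7b2 (-2.08, adjusted p = 0.0905) did not pass with normexp. Pfkp had a second probe at -0.09.

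Iron and zinc genes had values in both directions. Beside the rises of Heph and Slc39a8, 5 of 45 metal-handling genes were at least 2-fold higher in both lines and 7 lower, and no fall passed. Ftl1, ferritin light chain, had levels of 3.14 and 3.08 in EpiSCs, against 5.47 in mES cells (-2.36 ± 0.31, adjusted p = 0.0522). Tfrc, the transferrin receptor, had 1.76 and 1.49, against 3.06 in mES cells (-1.43, adjusted p = 0.138). The metallothionein genes Mt2 (4.47 and 3.61, against 6.67 in mES cells, -2.63) and Mt1 (3.20 and 2.20, against 4.40 in mES cells, -1.69) were lower, with adjusted p of 0.0894 and 0.214. These last 4 genes were named after their values were seen.

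Some other genes that act on retinoids had higher values beside the rise of Dhrs3. Cyp26a1, which breaks down retinoic acid, had levels of -0.58 in the E3.5 line and 1.55 in the E5.5 line, against -4.37 in mES cells (4.85, adjusted p = 0.23). The receptor gene Rarb had -2.03 and -2.69, against -3.85 in mES cells (1.49), and Rdh10 had -2.21 and -2.32, against -3.55 in mES cells (1.28). Rbp7, a retinol-binding protein gene, fell by contrast (levels of -3.73 and -3.01, against 0.64 in mES cells, -4.01, adjusted p = 0.0348). Apart from Dhrs3 these genes were picked after their values were seen, and the list of aldehyde, retinol and short-chain dehydrogenases, which holds Dhrs3, had 6 genes at least 2-fold higher and 9 at least 2-fold lower in both lines of 56. Rbp7 missed the threshold with normexp (adjusted p = 0.0527) and with the mean of its probes (adjusted p = 0.0546).

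Transporters and detoxifying enzymes were spread over both directions. Of 283 solute carriers, 23 were at least 2-fold higher and 33 at least 2-fold lower in both lines (8.13% and 11.7%, against 7.92% and 7.32% of all genes tested). Slc38a5, a glutamine transporter, rose (levels of 0.65 and 0.85 in EpiSCs, against -2.37 in mES cells, 3.12 ± 0.36, adjusted p = 0.0418). Slc5a11, a sodium-coupled inositol transporter, fell (-3.17 and -3.42, against 1.77 in mES cells, -5.07 ± 0.62), as did Slc51a (-2.98) and the peptide transporter gene Slc15a1 (at least 4.19-fold lower). Of 60 glutathione and thioredoxin genes, Gstm5 rose (3.35 and 3.42 in EpiSCs, against 0.21 in mES cells, 3.17) and Gpx2, a glutathione peroxidase of epithelia, fell (-0.14 and -0.49, against 3.21 in mES cells, -3.53). Of 67 cytochromes P450, Cyp2s1 (-2.90) and Cyp2c23 (-5.16) fell. With normexp Slc51a (-0.95, adjusted p = 0.419), Slc15a1 (-0.43, adjusted p = 0.75) and Cyp2c23 (-2.60, adjusted p = 0.0869) did not pass, nor Slc5a11 with quantile scaling (0.056) or the mean of probes (0.051). Without the E3.5 line Slc38a5 (adjusted p = 0.0753), Slc51a (0.0912), Gstm5 (0.0769), Gpx2 (0.0524) and Cyp2s1 (0.076) did not pass. Without the E5.5 line the same genes had adjusted p of 0.0892 for Slc38a5, 0.078 for Slc51a, 0.081 for Gstm5, 0.0699 for Gpx2 and 0.112 for Cyp2s1.

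Homeobox factors were the transcription factor family with the most calls. Of 131 tested, 31 were at least 2-fold higher in both lines (background 7.92%) and 8 lower (background 7.32%). Past the test 5 rose (background 0.39%) and 3 fell (background 1.11%). The Meis genes, partners of Hox proteins on DNA, were singled out after their values were seen: all 3 were at least 2-fold higher in both lines, and 2 rose. Meis2 had levels of 3.64 and 2.66 in the EpiSC lines, against -1.51 in mES cells (4.66 ± 0.53, adjusted p = 0.0395). Meis1 had -2.34 and -2.26, against -5.73 in mES cells (3.42 ± 0.33, adjusted p = 0.0286). Meis3 had a positive value that did not pass (2.15). Meis1 did not pass with normexp (adjusted p = 0.0548) or without the E3.5 line (0.057) or the E5.5 line (0.0605), nor Meis2 with the mean of probes (0.0527) or quantile scaling (0.0529).

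Of 36 Hox genes tested, 8 were at least 2-fold higher in both lines and 0 lower, and Hoxb2 rose (levels of 0.88 and 0.04 in EpiSCs, against -3.49 in mES cells, 3.95 ± 0.48, adjusted p = 0.0463). Hoxa2 (3.69), Hoxb1 (3.57), Hoxb3 (2.46), Hoxa5 (2.71), Hoxc9 (2.68), Hoxd4 (3.23) and Hoxb8 (5.05) did not pass. Among these 8 the lines differed most in Hoxd4, with -1.50 in the E3.5 line and -4.55 in the E5.5 line, against -6.25 in mES cells. On the other side, Rhox2a (-5.81), Rhox5 and Rhox9 (-4.14) fell, and Rhox6 had -5.27 (adjusted p = 0.0885). The Rhox genes lie together on the X chromosome and are a reproductive homeobox cluster. A second probe of Hoxb8 gave 0.02. Hoxb2 did not pass without the E3.5 line (adjusted p = 0.057), nor Rhox9 without the E3.5 line (0.0556), without the E5.5 line (0.0533) or with the mean of probes (0.051).

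**Figure D4:**
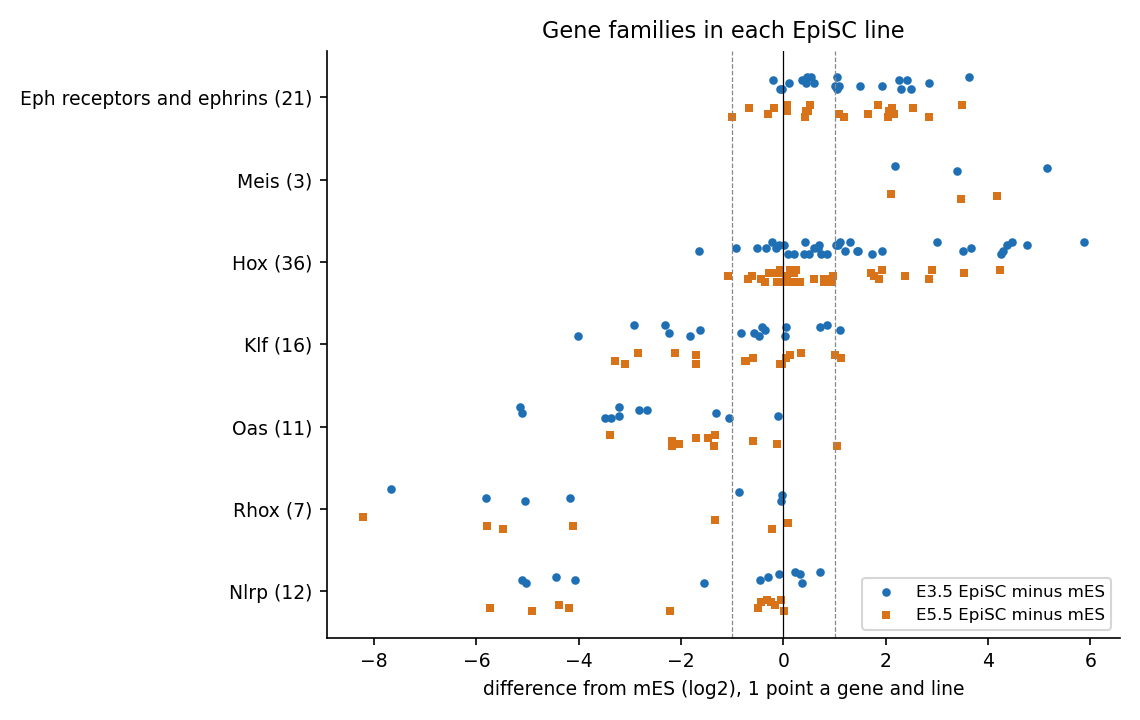
Difference from mES (log2) for every tested member of 7 gene families, E3.5 EpiSC line (blue circles, upper row of each family) and E5.5 EpiSC line (orange squares, lower row), with the number of genes in brackets and dashed lines at 2-fold. Meis points lie right of the 2-fold line in both lines, and Oas points lie mostly to the left, further in the E3.5 line than in the E5.5 line.

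Other factors that rose were T (Brachyury), the factor of nascent mesoderm, with levels of 1.48 and 1.07 in the EpiSC lines, against -2.40 in mES cells (3.67 ± 0.35, adjusted p = 0.0286), and Sp8, a zinc finger factor of limb and brain patterning, with 0.61 and 0.04, against -3.73 in mES cells (4.05 ± 0.40, adjusted p = 0.0301). Zfp521 (3.95), a factor known to promote neural differentiation of ES cells, Zfp608 (3.42) and Zfp629 (2.77) rose, while Zfp459 (-4.02), Zfp750 (-3.88), Zfp946 (-3.0) and Zfp987 (-2.94) fell. Zfp987 and its relatives are close copies, which a probe may not separate. Of 285 Zfp genes, 18 were at least 2-fold higher and 32 at least 2-fold lower in both lines. Zeb2, a repressor of E-cadherin, and Vgll4, a cofactor of TEAD factors, rose by 3.06 and 3.82; both were named after their values were seen. Zfp750 did not pass with normexp (-1.75, adjusted p = 0.168), nor Zfp629 with the mean of probes (0.0565). Without the E3.5 line T (adjusted p = 0.0541), Zfp608 (0.0589), Zfp629 (0.0871), Zfp946 (0.0757), Zfp987 (0.0757) and Zeb2 (0.076) did not pass. Without the E5.5 line this held for Zfp608 (0.0542), Zfp629 (0.118), Zfp946 (0.0936), Zfp987 (0.101), Zeb2 (0.0798) and Vgll4 (0.0514).

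Of 29 Sox and POU factors, 7 were at least 2-fold higher in both lines (background 7.92%) and 1 lower (background 7.32%). Sox11 (2.62, adjusted p = 0.069) and Sox21 (2.24) came after Sox9, and Sox15 (-2.19) was the lower one. Of 39 forkhead factors, 7 were at least 2-fold higher and 0 lower; Foxb1 had levels of -0.90 and -1.29 in EpiSCs, against -4.45 in mES cells (3.35, adjusted p = 0.0572), and Foxa2, a factor of endoderm, had 0.99 in the E3.5 line and 3.37 in the E5.5 line, against -3.77 in mES cells (5.95 ± 1.39, adjusted p = 0.139). The distance between the lines widened the error of Foxa2.

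Of the naive factors named here, Nr5a2 and Spic fell. Nr5a2, a nuclear receptor that drives Pou5f1 in naive cells, had levels of -2.96 and -3.10 in the EpiSC lines, against 2.65 in mES cells (-5.69 ± 0.31, adjusted p = 0.0133). Esrrb had -3.50 and -2.27, against 4.28 in mES cells (-7.17 ± 1.30, adjusted p = 0.0903). Its error takes in the treated lines, which lay apart at -2.15 (E3.5) and -5.06 (E5.5), so a missed call is not a lack of difference. Nr0b1 (-8.07, adjusted p = 0.0651), Tbx3 (-5.06, 0.19) and Tfcp2l1 (-3.71, 0.07) were also at least 2-fold lower in both lines and did not pass. Of 24 Klf and Sp factors, 5 were at least 2-fold lower in both lines, namely Klf3 (-2.88), Klf4 (-3.55), Klf5 (-2.77), Klf8 (-2.21) and Klf9 (-1.76), and none of these passed. Klf2 lay at 3.36 and 3.43 in EpiSCs, against 3.30 in mES cells on its brightest probe, while the mean of its probes gave -1.79 (log2, EpiSC minus mES), so that its direction is not settled. Spic, an Ets factor of naive cells and macrophages, fell (-5.03 and -5.39, against -1.40 in mES cells, -3.81 ± 0.43, adjusted p = 0.0384), while Etv1 and Etv4, of the same family, had 1.20 and -1.46. Klf3 had a second probe at -0.41. Spic did not pass with normexp (adjusted p = 0.0857) or without the E5.5 line (adjusted p = 0.0598).

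Among the 40 lists, that of germline families held the most falls. In the list of Tex, Pramel, Mage, Xlr, Oog and related families, 32 of 62 tested were at least 2-fold lower in both lines (background 7.32%) and 0 were higher. Of the 62, 15 fell past the test (background 1.11%), and the median was -1.23. Tex19.1, a placenta and germ line gene, had levels of -0.32 and 0.28 in the EpiSC lines, against 5.38 in mES cells (-5.39 ± 0.39, adjusted p = 0.0192). Xlr4b (-5.30) and Xlr3c (-5.22) fell by similar amounts. Dazl, an RNA-binding protein gene of germ cells, had -6.10 and -6.12, against -1.10 in mES cells (-5.01 ± 0.54, adjusted p = 0.036). Genes of the meiotic chromosome axis, picked after their values were seen, included Sycp3 (-7.61), Smc1b (-5.30), Hormad1 (-3.93) and Rec8 (-2.79), which fell, and Stag3 (-4.46, adjusted p = 0.0582) and Dmc1 (-2.08), which did not pass. Of 14 genes of meiotic cohesin, synaptonemal complex and recombination, also grouped after their values were seen, 11 were at least 2-fold lower in both lines and 6 fell. The backgrounds are those given for the list. Dazl did not pass with normexp (-2.67, adjusted p = 0.0835), nor Rec8 with the mean of probes (0.0779), without the E3.5 line (0.0902) or without the E5.5 line (0.118).

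Some of the falls were the germ-cell copy of a protein that other cells take from a second gene. A set of 22 such pairs was put together after the falls were seen, so the counts follow in part from the choice. Some pairs, such as Piwil2 and Ago2, are members of 1 family and not copies of 1 protein. Of 21 germ-cell copies tested, 14 fell (1.11% of all genes tested). At least 2-fold lower in both lines were 18 (7.32% of all genes tested), and the median was -4.78 (log2). Of the 22 general copies 0 passed the test, the median was 0.14 and the range -0.53 to 2.69. Cycs, the general cytochrome c gene, had levels of 5.49 and 5.29 in the EpiSC lines, against 4.98 in mES cells (0.41 ± 0.42), beside -8.96 for Cyct. Ldhc, the testis lactate dehydrogenase gene, had -6.05 and -7.93, against -0.41 in mES cells (-6.58 ± 0.83, adjusted p = 0.0474), and Ldha had 8.19 and 8.30, against 8.09 in mES cells (0.15). Ldhc did not pass with the mean of probes (adjusted p = 0.0536).

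Further pairs were of transcription and chromosome proteins. Taf7l, a germ-cell TFIID subunit, was at least 55.1-fold lower, and Taf7 lay at -0.53. Rpl39 lay at 0.17 beside -8.22 for Rpl39l, and Smc1a at 0.15 beside -5.30 for Smc1b. Clgn, a chaperone of sperm proteins, fell (-4.27 ± 0.34, adjusted p = 0.0201), and Canx, its general relative, lay at -0.24. The exceptions among germ-cell copies were Gapdhs (0.09), Pgk2 (-1.04) and Cox6b2 (-1.15), which were not 2-fold lower in both lines. Rbmx, the general partner of Rbmxl2, had 0.63 and 1.24 in EpiSCs, against -1.76 in mES cells (2.69, adjusted p = 0.0656), the only general copy at least 2-fold off in both lines. Probes of such copies can cross-hybridise, which would pull the members of a pair together. Taf7l did not pass with normexp (-3.08, adjusted p = 0.0606).

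**Figure D5:**
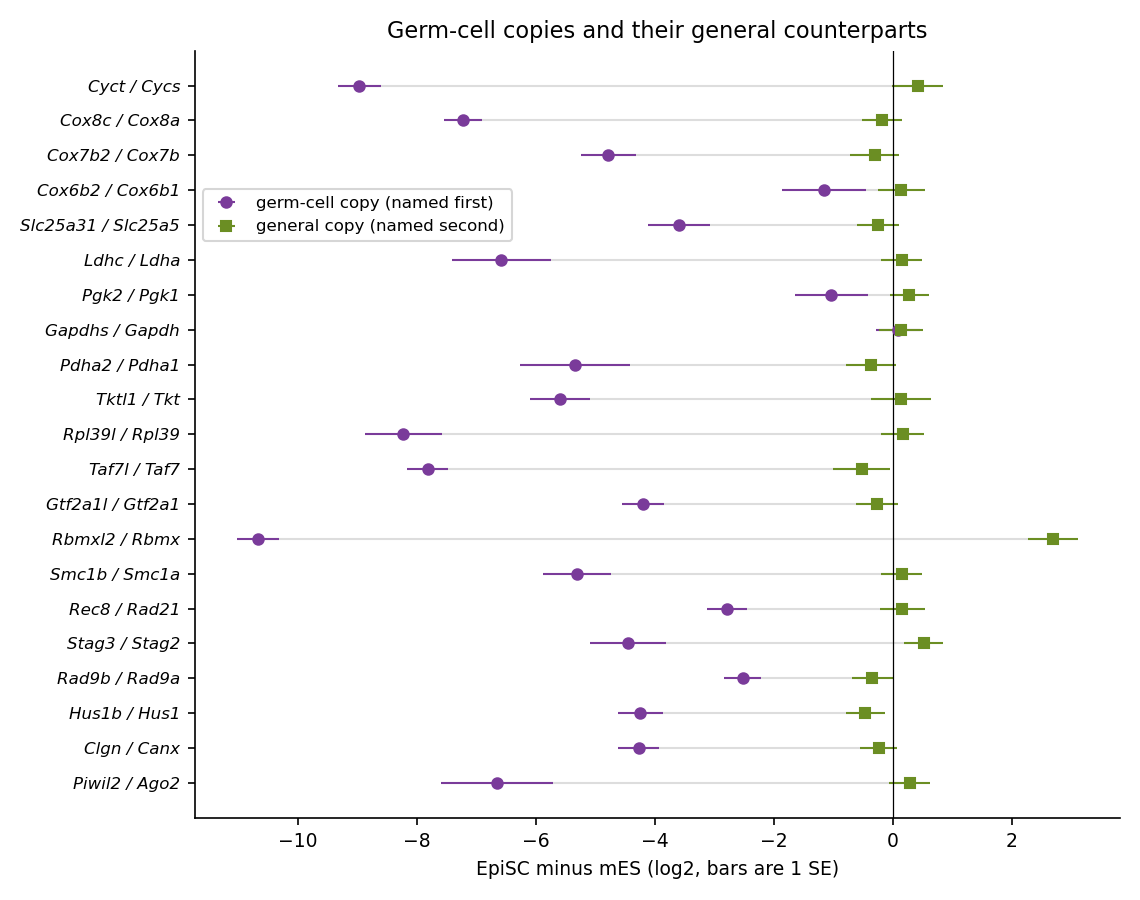
Fitted difference EpiSC minus mES (log2, bars are 1 SE) for 21 pairs of a germ-cell copy (purple circles, named first) and its general counterpart (green squares, named second). The pairs were chosen after the falls were seen. The germ-cell copies spread to -10.67 for Rbmxl2 while the general copies lie near 0, except Rbmx at 2.69.

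Some innate immune genes fell as well, beside 1.11% of all genes tested. Of 7 inflammasome sensors and adaptors, grouped after their values were seen, 3 fell: Aim2 (-5.83 ± 0.34, adjusted p = 0.0133), which senses DNA in the cytosol, Nlrc4 (-4.87), and the adaptor gene Pycard, with levels of -0.78 and -1.08 in the EpiSC lines, against 3.38 in mES cells (-4.32 ± 0.34, adjusted p = 0.0201). Of 12 Nlrp genes, also grouped after their values were seen, 4 fell, of which several are known from the oocyte. They were Nlrp14 (-5.42), Nlrp9b (-4.97), Nlrp4f (-4.42) and Nlrp4c (-4.14). Of 49 interferon response genes, 12 were at least 2-fold lower (background 7.32%) and 2 higher (background 7.92%) in both lines, and none of the lower ones passed. The lower ones included 8 of 11 Oas genes, sensors of double-stranded RNA. Oas1a had levels of -0.10 in the E3.5 line and 2.04 in the E5.5 line, against 3.39 in mES cells (-2.42 ± 1.30, adjusted p = 0.473). The Oas genes are close copies, and their probes may read one another. With normexp Aim2 (-1.55, adjusted p = 0.273), Nlrc4 (-1.53, adjusted p = 0.222) and Nlrp9b (-0.86, adjusted p = 0.537) did not pass.

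Among remaining lists, 6 of 20 immediate early genes were at least 2-fold higher in both lines and 1 lower, with Jun at 0.12 and 0.58 in EpiSCs, against -2.23 in mES cells (2.58 ± 0.37, adjusted p = 0.0585). The keratin genes Krt8 (levels of 3.86 and 2.78, against -0.59 in mES cells, 3.90 ± 0.65) and Krt18 (4.75 and 4.06, against 1.31 in mES cells, 3.09), partners in simple epithelia, had adjusted p of 0.0774 and 0.114. Of 82 cytoplasmic ribosomal protein genes, 0 were at least 2-fold higher, and Rpl39l and Rpl3l (-2.36) were the only ones at least 2-fold lower in both lines. Ccnd2, a cyclin of the G1 phase, rose by 4.11 and was named after its value was seen. Ccnd2 missed the threshold with quantile scaling (adjusted p = 0.0532).

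The X chromosome held 3.42% of the genes tested, 11.1% of the rises (7 of 63) and 11.7% of the falls (21 of 179). In the larger sets its shares were smaller. It held 5.31% of genes at least 2-fold higher in both lines (68 of 1280) and 4.99% of those lower (59 of 1182). The X-linked falls included genes of the Rhox and Xlr families. Xist differed between the EpiSC lines, as given above, and its part in these shares was not tested.

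The genes that passed were also read on the treated arrays, which above entered the filter on signal and the estimate of the spread. The test favours genes on which the treated lines lie close together, and no share over all genes was taken, so the counts are not separate support. Of the 63 rises, 55 were at least 2-fold higher in both treated EpiSC lines than in treated mES cells, and 5 of the 63 lay below it in at least 1 treated line. The 8 that were not 2-fold higher in both included Fgf5 (-0.82 in the treated E3.5 line and -0.56 in the treated E5.5 line), Fgf8 (0.28 and -0.14), T (0.43 and 0.40) and Dhrs3 (0.37 and 0.60). Of the 179 falls, 173 were at least 2-fold lower in both, and 1 lay above it in a treated line. With the treated mES array in place of the untreated one, 63 of 63 rises and 175 of 179 falls were at least 2-fold in both untreated lines. St6galnac1 was among the falls that were not.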

How the data were processed

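Each of the 6 samples was hybridised in 1 colour (Cy3) to 1 Agilent array. Per the file headers the deposited scanner files hold processed signal intensity, made with Feature Extraction 10.7.1.1 (build mm8), while the submitters' processing notes name 9.1. Other deposited columns are flags and probe names. The deposited value table equals the processed signals at 45018 of 45018 values compared. Repeat spots were averaged (median coefficient of variation 5.09% to 7.37%), log2 was taken relative to each array's 75th percentile, and a gene was read from its probe with the highest mean signal. RefSeq named 24375 of 41174 probes. limma 3.58.1 (R 4.3.3) fitted 4 arms over 6 arrays (2 residual degrees of freedom), with Benjamini-Hochberg adjustment over 16152 genes, and the single mES array was assumed to vary like the EpiSC lines. The scripts were tested on simulated data. The number of arrays limits the precision. The normexp alternative used median in place of mean signals.

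Members and lists were chosen with earlier results of these data known. The naming rule took the 12 leading rises and falls, 8 dim genes each way, up to 4 genes a list each way, and the markers; other genes were named after their values were seen. Alternatives changed background correction, scaling, filters, probes, the variance model and the arrays used.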

Additional observations from a re-analysis of the deposited data

Results flagged for a closer look

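There were 41 genes at least 2-fold higher than mES cells in one EpiSC line and at least 2-fold lower in the other, 33 of them higher in the E5.5 line and 8 in the E3.5 line. The Y-linked Ddx3y was one, at -5.32 in the E5.5 line and 1.32 in the E3.5 line (log2, against mES cells). They stand out because the lines moved in opposite directions, and the difference between the lines was not tested, since each line is 1 array.

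Probes without a gene name in the tables used were left out of the comparison. Of 14113 such probes with signal, 858 were at least 2-fold higher in both EpiSC lines (6.08%) and 985 at least 2-fold lower in both (6.98%), shares below those of named genes (7.92% and 7.32%).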

How the results depend on the processing

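Against 63 rises and 179 falls, normexp background correction gave 69 and 113 (45 and 90 shared), genes above background on all 6 arrays 124 and 148, and an intensity trend in the variance model 343 and 332. The 3 untreated arrays alone gave 0 and 0, with 3281 genes at an unadjusted p under 0.05. Leaving out 1 array gave 0 to 63 rises and 0 to 179 falls. Without the E3.5 EpiSC array there were 51 and 164, and without the E5.5 EpiSC array 48 and 168, of which 25 and 126 were shared with the full fit in each case. Rises made up 26% of calls, against 37.9% with normexp, 45.6% with the stricter filter and 50.8% with the trend. normexp moved the median of all genes to 0.13, against -0.06. The count at least 2-fold lower in both lines, 1182, was 672 with normexp and between 1705 and 2007 with 1 line left out; that at least 2-fold higher, 1280, lay between 1742 and 1889 with 1 line left out, where 1 condition is dropped by construction. Of 182 genes named, 96 passed, and 0 of these reversed, but 28 lost the call with normexp, 12 with the mean of probes, 3 with quantile scaling, 22 without the E3.5 line and 24 without the E5.5 line, 50 in all. Among those that did not pass, 7 genes changed sign: Dnmt3b (0.034 with quantile scaling), Klf2 (-0.0081 with normexp and -1.79 with the mean of probes), Gapdhs (-0.081 with the mean of probes), Pgk2 (0.56 with normexp), and, leaving out 1 EpiSC line, Ddx3y (-5.32 to 1.32), Dnmt3b (-0.14 to 0.023), Gapdhs (-0.095 to 0.27), Otx2 (-0.14 to 2.58) and Xist (-1.64 to 7.18). Cer1, Zfp42, Nr0b1, Tbx3, Tfcp2l1 and Tagln, named above as markers, were not followed through these settings and are not among the 182. The 50 genes leave out the fits that gave 0 rises and 0 falls, in which all 96 lost the call. At 4-fold the counts were 391 and 485. The cause of the other changes was not tested. The slide as a random block was not run, because its correlation could not be estimated. No paired analysis was possible because no line is in both the EpiSC and the mES group. The EpiSC line as a replicate block over untreated and treated arrays, chosen after seeing the data, gave 249 rises and 382 falls, which include the 63 and 179, with 1 residual degree of freedom.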
